A study of Mus musculus with 6 samples.

Results

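The genes described are the collagens, laminins and integrins, the main structural proteins of the extracellular matrix and the cell surface receptors that hold cells to it. They were chosen by name: a gene was taken where its RefSeq symbol began with Col and a digit, with Lama, Lamb or Lamc and a digit, or with Itga or Itgb. The leukocyte integrin genes Itgam, Itgax, Itgal and Itgb2 were left out by the same rule. RefSeq holds 82 such genes, of which 78 had at least 1 probe on the array, out of 19988 genes that could be named. Those 78 genes had 108 probes. Col12a1, Col6a3, Itga10 and Itgae had no probe named through RefSeq and were not analysed here. The naming rule also takes Itgbl1, Itgb1bp1, Itgb1bp2 and Itgb3bp, which are named after integrins but encode no integrin chain. They stay in the counts of all members and are described apart from the integrin chains below.

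Gene expression was measured in S-phase cells sorted from mouse embryos at embryonic day 14.5. The tissue was the dorsal telencephalon, from which the cerebral cortex forms. The embryos were of the C57BL/6J strain and carried GFP knocked into 1 copy of Tis21, also called Btg2, a gene switched on in neural progenitors that go on to make neurons. Cells with a DNA content between 2N and 4N were sorted and split by GFP, giving 3 arrays of Tis21-GFP positive and 3 of Tis21-GFP negative cells. Each replicate pooled about 200000 cells of 30 hemispheres from 15 embryos, and the authors kept the best 3 of 4 experiments by a rule the sources used here do not give. Both groups came from the same heterozygous embryos, so GFP, not genotype, separates them. The positive cells are not a purified cell type beyond the reporter and the DNA content, and the negative cells are all other S-phase cells of the dissected tissue. The p-values below measure the spread between these pooled samples, and the small number of arrays limits their precision. The arrays measured RNA, not the matrix protein around the cells.

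Fibrillar collagens such as types I and III form the fibres of connective tissue, whereas type IV collagen and the laminins, trimers of an alpha, a beta and a gamma chain, form the basement membrane. In the embryonic cortex a basement membrane underlies the meninges at the outer surface, where the end feet of radial glia attach, and another surrounds the blood vessels. An integrin is a pair of an alpha and a beta chain, and the alpha chain largely decides whether collagen, laminin, fibronectin or another ligand is bound.

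The genes Col4a1 and Col4a2, which encode the chains of the most widespread type IV collagen, lie head to head on mouse chromosome 8, and their transcripts fell together in the positive cells, as described below. Their starts in the RefSeq table of assembly GRCm38.p6 lie 21 bases apart, with Col4a2 on the plus strand at 11312805 and Col4a1 on the minus strand at 11312826. The sequence between the starts, shared by both transcripts on opposite strands, is printed from the plus strand at chr8:11312805-11312826. It is shown with the 250 bases before the start of each of the following members. Col3a1 (plus strand, chr1:45311288-45311537) is the member with the largest decrease. Col1a2 (plus strand, chr6:4505368-4505617) is another fibrillar collagen that fell. Itga4 (plus strand, chr2:79255176-79255425) is the integrin with the largest increase. Capitals mark matches to CCAAT on either strand, GGGCGG on either strand and TATAAA on the printed strand.
Col4a2 start to Col4a1 start: agtgcgcGGGCGGcgtctccaa
Col3a1: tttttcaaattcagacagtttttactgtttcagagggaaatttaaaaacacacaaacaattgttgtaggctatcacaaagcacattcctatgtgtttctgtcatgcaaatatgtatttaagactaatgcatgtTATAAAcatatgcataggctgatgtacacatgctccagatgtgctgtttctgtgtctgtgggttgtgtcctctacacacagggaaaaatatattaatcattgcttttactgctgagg
Col1a2: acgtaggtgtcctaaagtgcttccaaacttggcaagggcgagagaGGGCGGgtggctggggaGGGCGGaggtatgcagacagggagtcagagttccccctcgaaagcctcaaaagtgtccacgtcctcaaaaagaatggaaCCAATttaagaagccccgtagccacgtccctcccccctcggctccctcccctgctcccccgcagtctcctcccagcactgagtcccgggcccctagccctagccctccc
Itga4: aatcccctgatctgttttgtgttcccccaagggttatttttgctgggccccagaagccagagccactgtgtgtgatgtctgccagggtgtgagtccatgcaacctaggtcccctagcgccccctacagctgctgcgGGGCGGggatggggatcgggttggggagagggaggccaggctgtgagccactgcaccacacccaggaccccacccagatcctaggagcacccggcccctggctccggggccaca

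The RefSeq promoter table held entries for 60 of the 82 genes, 66 entries in all, and the motifs were counted in the 250 bases before each start. GGGCGG was present in 9 of the 18 entries of members that fell (50%), in 10 of the 16 entries of members that were tested and not called (62.5%) and in 32.7% of all 32851 entries. CCAAT was present in 7 of the 18 entries (38.9%), against 33.8% of all entries, and TATAAA in 1 (5.56%), against 7.59%. The motifs were counted separately, and overlaps between them were not removed. These counts describe only the letters in the windows.

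Signal is given as the scaled log2 intensity of a probe, its log2 brightness minus the 75th percentile of the same array, so that 0 is that percentile and 1 unit is 2-fold. A probe's level is compared only with itself across arrays, since probes differ in how well they bind. The scanner software marks each spot as well above background or not. A gene was tested where at least 1 of its probes carried that mark on each of the 3 arrays in 1 group or both. The brightest of the probes that passed stood for the gene. The 75th percentile lay between 213 and 341 intensity units over the 6 arrays, and 28519 to 31274 of 55681 probes were well above background. Groups were compared with limma over all 13136 tested genes, a gene was called at a Benjamini-Hochberg adjusted p below 0.05, and differences are Tis21-GFP positive minus negative with the moderated standard error (SE). The median difference of all tested genes was 0.12, and differences are given against 0 without removing that shift. Of all calls, 49.6% were higher in positive cells, a share that was 65.8% with median centring of each array, 39.6% with quantile normalization, 39.5% with the authors' processed values and 29.1% with the percentile restricted to probes well above background on every array.

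RNA of collagens, laminins and integrin chains was mostly lower in the Tis21-GFP positive cells. Of 51 members tested, 27 fell, 4 rose and 20 were not called. Of the 48 that encode a collagen, laminin or integrin chain, 27 fell, 3 rose and 18 were not called. Over all 13136 genes, 13.1% fell and 12.8% rose, against 52.9% and 7.84% of the members. The groups did not overlap, with every negative array above every positive array, for 31 of the 51 members, against 18.6% of all genes. Every positive array was above every negative array for 4 members, against 28.1% of all genes. The median difference of the members was -1.16, and 24 of the 51 were called and at least 2-fold lower, against 7.49% of all genes. These counts cover members that passed the filter, not the whole family: 7 of the 51 were well above background on no positive array and passed through the negative group alone, and 1, Col14a1, passed through the positive group alone. Over all tested genes, 1.56% were well above background on no positive array and 0.25% on no negative array. Among the 35 members well above background on all 6 arrays, 16 fell, 3 rose and 16 were not called. In a separate fit of the 12249 genes well above background on all 6 arrays, 1378 fell and 1753 rose.

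Members of all 3 families fell. Of 24 collagens tested, 14 fell and 1 rose (58.3% and 4.17%), with a median difference of -1.37. Of 10 laminin chains, 6 fell and 0 rose (60% fell), with a median of -1.08. Of 14 integrin chains, 7 fell and 2 rose (50% and 14.3%), with a median of -1.04. The other 3 tested genes, which encode no integrin chain, had differences of 0.19 to 0.42, and 1 of them was called. Whether the families differ from each other was not tested.

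**Figure D1:**
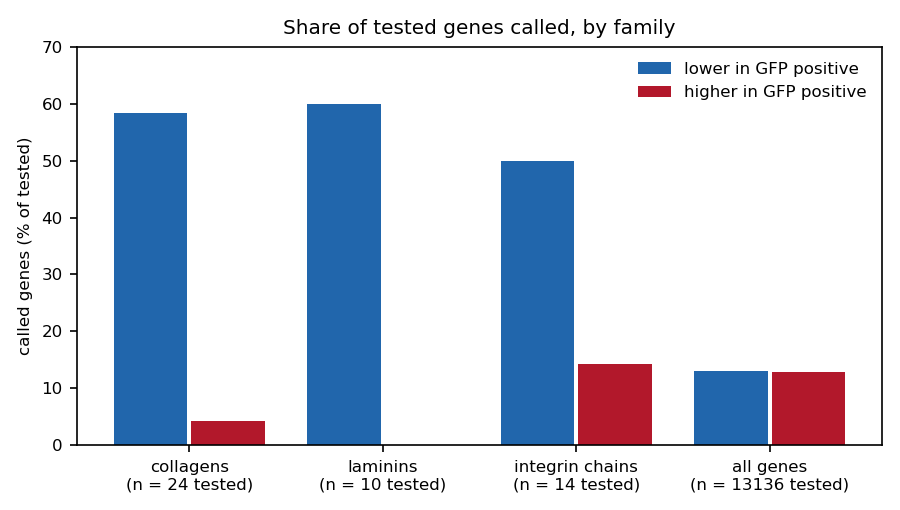
Bars show the percentage of tested genes called lower (blue) or higher (red) in Tis21-GFP positive cells, for collagens (n = 24), laminins (n = 10), integrin chains (n = 14) and all tested genes (n = 13136). The lower bars stand at 58.3%, 60% and 50% for the families and at 13.1% for all genes, and the higher bars at 4.17%, 0%, 14.3% and 12.8%.

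**Figure D2:**
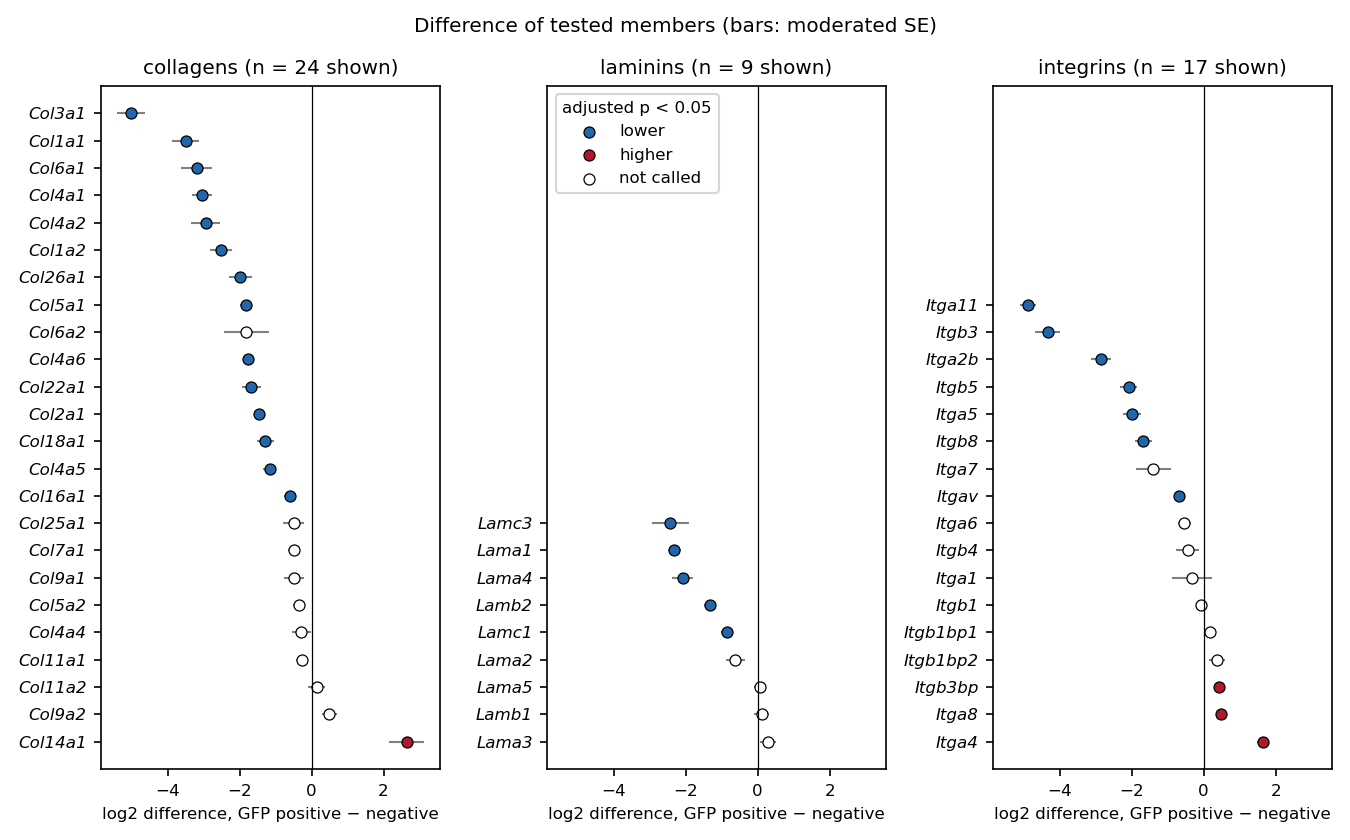
Each point is the log2 difference (Tis21-GFP positive minus negative) of 1 of 50 tested members with its moderated SE as a bar, in a panel per family, filled blue where called lower, red where called higher and open where not called. Col3a1 stands lowest at -5.02 and Col14a1 highest at 2.65.

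Of the 27 members that were not tested, 22 were well above background on no array. They were 15 collagens (Col10a1, Col13a1, Col15a1, Col17a1, Col19a1, Col24a1, Col28a1, Col4a3, Col5a3, Col6a4, Col6a5, Col6a6, Col8a1, Col8a2 and Col9a3), the laminin chain Lamb3, 5 integrin chains (Itga2, Itgad, Itgb2l, Itgb6 and Itgb7) and Itgbl1, which encodes none. Col20a1, Col23a1, Col27a1, Itga3 and Itga9 were well above background on some arrays without reaching all 3 of a group. Many of these genes are best known from other tissues: Col10a1 from growth cartilage, Col17a1 and Lamb3 from the attachment of skin to its basement membrane, and Itga2 from platelets and epithelia.

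Among the fibrillar collagens, 8 were tested, 5 fell and 0 rose. Col3a1, which encodes the chain of type III collagen, stood at 0.63, -0.11 and -0.63 on the negative arrays and at -4.61, -4.72 and -5.83 on the positive arrays. The groups were far apart, and the probe was well above background on all negative arrays and on 0 positive arrays. The fitted difference was -5.02 ± 0.40 (adjusted p = 0.000227), and measured against the lowest signal still well above background Col3a1 was at least 16.6-fold lower. That bound sets the mean of the brighter group against, on each array of the dimmer group, the higher of the probe's own signal and the lowest signal of any probe marked well above background. The same definition holds for each "at least" below.

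Type I collagen, the major collagen of bone, skin and meninges, is made of chains from Col1a1 and Col1a2. Col1a1 stood at 0.17, -0.29 and -1.0 on the negative arrays and at -4.06, -4.39 and -3.17 on the positive arrays, of which 1 was well above background. Col1a2 stood at 0.99, 0.38 and -0.27 on the negative arrays and at -2.08, -2.45 and -1.89 on the positive arrays, all well above background. Both genes of the trimer were separated between the groups, by -3.50 ± 0.37 (adjusted p = 0.000586) for Col1a1 and by -2.50 ± 0.31 (adjusted p = 0.000997) for Col1a2. Col1a1, Col1a2 and Col3a1 shared the order of the negative arrays: replicate 1 was highest and replicate 3 lowest.

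Col5a1, a chain of type V collagen, which sets the diameter of type I fibrils, was even within each group. It stood at -0.14, -0.14 and -0.01 on the negative arrays and at -1.73, -2.12 and -1.94 on the positive arrays, a difference of -1.83 ± 0.15 (adjusted p = 0.000233). Its partner chain Col5a2 was not called (-0.35 ± 0.17, adjusted p = 0.158, 95% interval -0.74 to 0.04), and its groups overlapped. The 2 chains of this trimer thus had different calls, and the difference between them was not tested.

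Col2a1, the collagen of cartilage, which is also made by early neuroepithelium, was also even within each group. Its values were 4.93, 4.80 and 4.77 on the negative arrays and 3.60, 3.21 and 3.32 on the positive arrays. The difference was -1.46 ± 0.15 (adjusted p = 0.000483), and all 6 arrays were well above background. Its cartilage partners Col11a1 and Col11a2 had differences of -0.28 ± 0.15 (adjusted p = 0.206) and 0.14 ± 0.23 (adjusted p = 0.665). Col11a1 stood at -1.38, -1.42 and -1.04 on the negative arrays and at -1.55, -1.67 and -1.45 on the positive arrays, so that its groups lay side by side without overlapping. The sign of Col11a2 was negative in 2 of the 16 alternative settings.

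Type IV collagen, the network collagen of every basement membrane, was lower in 4 of its 5 tested chains. Col4a1 stood at 0.87, -0.08 and 0.21 on the negative arrays and at -2.35, -2.73 and -3.05 on the positive arrays. Col4a2 stood at 0.35, -0.87 and -0.38 on the negative arrays and at -2.54, -3.21 and -3.98 on the positive arrays, of which 2 were well above background. The head-to-head pair fell by similar amounts, -3.04 ± 0.27 (adjusted p = 0.000317) for Col4a1 and -2.94 ± 0.41 (adjusted p = 0.00166) for Col4a2. In both genes negative replicate 1 was the highest array and positive replicate 3 the lowest.

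Col4a5 and Col4a6, neighbours on the X chromosome, encode chains of a type IV collagen of more restricted basement membranes. Col4a6 was even within the negative group, at 0.22, 0.15 and 0.20, and stood at -1.36, -1.60 and -1.78 on the positive arrays, a difference of -1.77 ± 0.15 (adjusted p = 0.000254). A second Col4a6 probe, dimmer but well above background on all arrays, differed by 0.21 and was not called in a fit of all probes (adjusted p = 0.494). With the mean of the gene's probes the difference was -0.78, still called. The probes of Col4a6 therefore did not move together, and the value of the gene depends on the probe. Col4a5 had a difference of -1.16 ± 0.18 (adjusted p = 0.00306), with no overlap between groups. Col4a4, a chain best known from the kidney filter, was not called at -0.28 ± 0.26 (adjusted p = 0.433), and its 2 tested probes had opposite signs (-0.28 and 0.37).

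Other collagens of basement membranes and beaded filaments followed. Col18a1, a basement membrane collagen with heparan sulfate chains and the source of endostatin, fell by 1.28 ± 0.24 (adjusted p = 0.00649), and its second tested probe differed by -1.01. Col6a1, a chain of the beaded filaments of type VI collagen, stood at -1.72, -2.36 and -3.55 on the negative arrays and at -6.13, -5.31 and -5.77 on the positive arrays. It was well above background on no positive array and was at least 2.91-fold lower, with a fitted difference of -3.19 ± 0.43 (adjusted p = 0.00154). Its partner Col6a2 lay below every negative array on all positive arrays, at -4.50, -6.63 and -3.73 against -3.08, -3.05 and -3.30, but was not called at -1.81 ± 0.63 (adjusted p = 0.0675). Positive replicate 2 stood lowest there, and Col6a2 was called at -0.97 without it (adjusted p = 0.0321) and at -2.42 without positive replicate 3 (adjusted p = 0.0153).

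Col22a1, known from tissue junctions such as that between muscle and tendon, stood at 0.73, 0.10 and 0.70 on the negative arrays and at -0.68, -1.29 and -1.53 on the positive arrays. The groups did not overlap, and the difference was -1.68 ± 0.26 (adjusted p = 0.00295). Col26a1 fell by 1.98 ± 0.32 (adjusted p = 0.00346). Col16a1 fell by 0.59 ± 0.16 (adjusted p = 0.0289), a call that was lost in 8 of the 16 alternative settings. Col7a1, the anchoring fibril collagen of skin, missed the threshold at -0.50 ± 0.16 (adjusted p = 0.0584), from -0.62, -1.01 and -0.82 on the negative arrays to -1.43, -1.43 and -1.08 on the positive arrays.

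Col14a1, a collagen on the surface of fibrils, was the only collagen called higher. Its probe stood at -4.57, -6.09 and -4.57 on the negative arrays, none of them well above background, and at -2.12, -3.30 and -1.87 on the positive arrays, all well above background. It was at least 3.49-fold higher in positive cells, with a fitted difference of 2.65 ± 0.49 (adjusted p = 0.00656). A second Col14a1 probe never rose well above background and differed by -0.09. Col9a2, a chain of the fibril-associated type IX collagen, stood at -0.75, -1.33 and -1.02 on the negative arrays and at -0.61, -0.23 and -0.77 on the positive arrays. The groups overlapped, and its difference of 0.50 ± 0.20 did not pass (adjusted p = 0.105). Col9a1 had a difference of -0.48 ± 0.27 (adjusted p = 0.216), and Col25a1, a transmembrane collagen of neurons, of -0.50 ± 0.30 (adjusted p = 0.244).

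**Figure D3:**
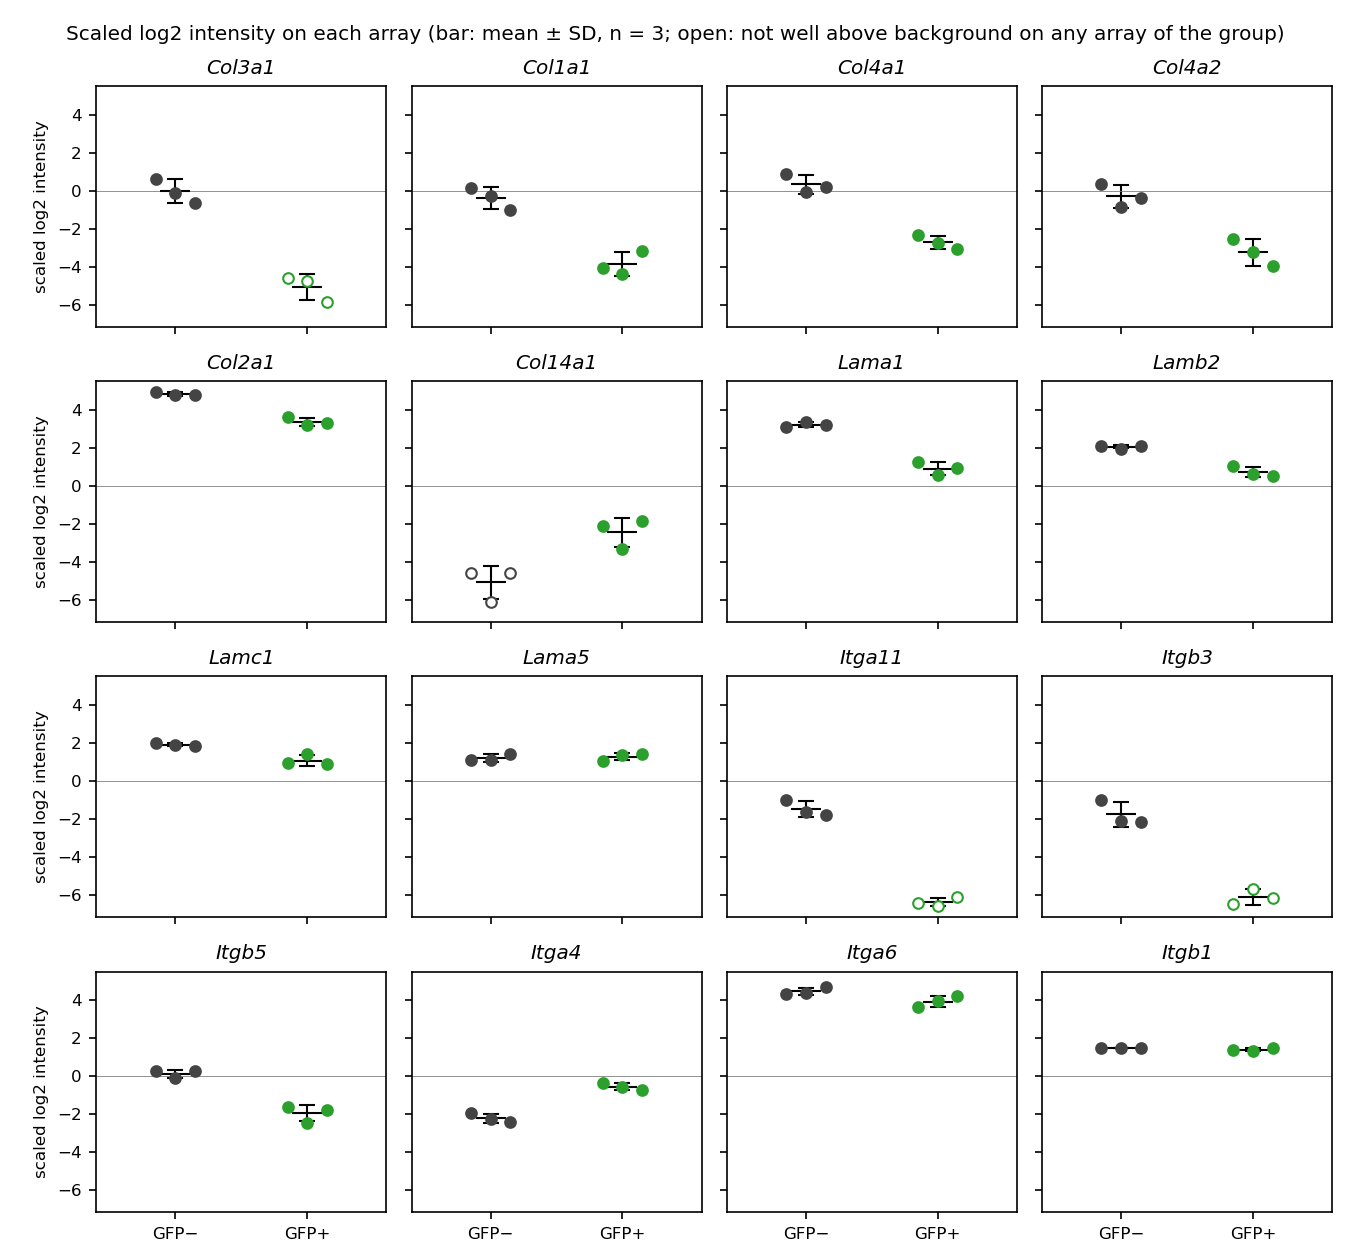
Each panel shows the scaled log2 intensity of a member on the 3 Tis21-GFP negative (grey) and 3 positive (green) arrays, in the order of replicates 1 to 3, with the mean and SD as a bar, and open circles where no array of that group was well above background. Col3a1, Itga11 and Itgb3 drop to open circles in the positive group, Col14a1 does so in the negative group, Itga4 is the integrin that rises, and Itgb1 and Lama5 overlap between groups.

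Of the laminin alpha chains, which carry the main receptor binding sites, 2 of 5 fell. Lama1, the alpha chain of the first basement membranes of the embryo and of the brain surface, stood at 3.12, 3.35 and 3.21 on the negative arrays and at 1.24, 0.56 and 0.95 on the positive arrays. The groups were widely separated, with all 6 arrays well above background, and the difference was -2.31 ± 0.19 (adjusted p = 0.000247). Over the 16 alternative settings the difference lay between -2.49 and -2.13. Lama4, the alpha chain known from blood vessel walls, stood at -1.08, -2.16 and -1.98 on the negative arrays and at -3.47, -4.17 and -3.84 on the positive arrays, 2 of them well above background. Its difference was -2.09 ± 0.30 (adjusted p = 0.00212), and negative replicate 1 was the highest array.

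The alpha chains Lama2, Lama3 and Lama5 were not called. Lama5, the alpha chain of many mature basement membranes, stood at 1.11, 1.09 and 1.45 on the negative arrays and at 1.08, 1.36 and 1.43 on the positive arrays, so that the groups overlapped. Its difference was 0.07 ± 0.16 (adjusted p = 0.759), with a 95% interval from -0.30 to 0.45. Lama3, the chain of the laminin that anchors skin, stood at -1.83, -2.43 and -2.66 on the negative arrays and at -1.88, -2.0 and -2.16 on the positive arrays, also overlapping (0.30 ± 0.22, adjusted p = 0.337). Lama2, the alpha chain of muscle and nerve whose loss causes congenital muscular dystrophy, had a difference of -0.62 ± 0.26 (adjusted p = 0.110). Lama2 was called with the replicate number as a block (adjusted p = 0.0151 at the same difference) and in none of the other 15 alternative settings. Lama1 fell and Lama5 did not pass, both with signal well above background on all arrays, and the difference between the 2 genes was not tested.

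Of the beta chains, Lamb2 fell and Lamb1 was not called. Lamb2, the beta chain known from nerve-muscle synapses, retina and kidney filter, stood at 2.09, 1.96 and 2.10 on the negative arrays and at 1.03, 0.65 and 0.50 on the positive arrays. The groups did not overlap, and the difference was -1.32 ± 0.17 (adjusted p = 0.00108). Lamb1, the more widespread beta chain, stood at 2.05, 1.49 and 1.39 on the negative arrays and at 1.91, 1.89 and 1.47 on the positive arrays. Its groups overlapped, with a difference of 0.12 ± 0.21 (adjusted p = 0.705, 95% interval -0.37 to 0.61) whose sign was negative in 4 of the 16 alternative settings.

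Among the gamma chains, Lamc1 and Lamc3 fell. Lamc1, the gamma chain of most laminin trimers, stood at 2.02, 1.90 and 1.85 on the negative arrays and at 0.93, 1.42 and 0.89 on the positive arrays. It fell by 0.84 ± 0.17 on the log2 scale (adjusted p = 0.0102), and it missed the threshold with median centring (-0.66, adjusted p = 0.0551). Lamc3, known from peripheral nerve, retina and the cortical surface, stood at -2.06, -3.29 and -3.47 on the negative arrays and at -5.32, -6.36 and -4.42 on the positive arrays. It was well above background on no positive array and was at least 2.21-fold lower (adjusted p = 0.0122), and replicate 1 was again the highest negative array.

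The integrin chains with the largest decreases were Itga11 and Itgb3. Itga11, the alpha chain of a receptor for fibrillar collagen known from fibroblasts, stood at -1.02, -1.61 and -1.77 on the negative arrays and at -6.39, -6.57 and -6.12 on the positive arrays. It was well above background on no positive array and was at least 6.14-fold lower, with a fitted difference of -4.89 ± 0.22 (adjusted p = 0.00014). Itgb3, the beta chain of the vitronectin receptor and of the platelet fibrinogen receptor, stood at -0.97, -2.12 and -2.17 on the negative arrays and at -6.47, -5.66 and -6.14 on the positive arrays. It too was well above background on no positive array, and it was at least 5.03-fold lower (adjusted p = 0.000233).

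The alpha chains that pair with Itgb3 also fell. Itga2b, the platelet and megakaryocyte chain, stood at -2.83, -3.83 and -2.95 on the negative arrays and at -5.98, -6.33 and -5.83 on the positive arrays, none of the latter well above background. It was at least 1.85-fold lower (adjusted p = 0.000392). Itgav, the alpha chain shared by receptors for vitronectin, fibronectin and latent TGF-beta, stood at -0.91, -1.26 and -0.94 on the negative arrays and at -1.77, -1.84 and -1.53 on the positive arrays. It fell by 0.67 ± 0.16 (adjusted p = 0.0171), its second tested probe differed by -0.70, and the call was lost in 4 of the 16 alternative settings.

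Other partners of Itgav fell further. Itgb5 stood at 0.26, -0.10 and 0.26 on the negative arrays and at -1.64, -2.44 and -1.75 on the positive arrays, a difference of -2.09 ± 0.23 (adjusted p = 0.000646). Itgb8, whose complex with Itgav on neural progenitors activates TGF-beta beside brain vessels, stood at -1.41, -1.27 and -1.13 on the negative arrays and at -2.69, -3.49 and -2.65 on the positive arrays. The groups did not overlap in either gene, all arrays were well above background, and Itgb8 differed by -1.68 ± 0.23 (adjusted p = 0.00179). Itga5, the alpha chain of the classical fibronectin receptor, stood at -1.58, -1.38 and -1.23 on the negative arrays and at -3.79, -2.86 and -3.52 on the positive arrays, of which 2 were well above background. Its difference was -1.99 ± 0.24 (adjusted p = 0.000929).

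Itga4 was the member with the clearest increase. It encodes the alpha chain that binds fibronectin and VCAM-1 and is well known from leukocyte and neural crest migration. Its values were -1.95, -2.26 and -2.41 on the negative arrays and -0.35, -0.59 and -0.71 on the positive arrays. All 6 arrays were well above background, every positive array was above every negative array, and the difference was 1.66 ± 0.17 (adjusted p = 0.000489). A second Itga4 probe never rose well above background. Itga8, known from kidney development, stood at -2.59, -2.72 and -2.80 on the negative arrays and at -2.33, -2.07 and -2.28 on the positive arrays. Its groups did not overlap, but the increase of 0.48 ± 0.14 (adjusted p = 0.0377) was lost in 10 of the 16 alternative settings.

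Itgb1, the beta chain shared by most receptors for collagen, laminin and fibronectin, was even over all arrays. It stood at 1.47, 1.46 and 1.47 on the negative arrays and at 1.39, 1.33 and 1.50 on the positive arrays. The difference was -0.06 ± 0.12 (adjusted p = 0.731), with a 95% interval from -0.35 to 0.22, and a second probe differed by -0.26 and was not called. Its sign was positive with median centring. Of its tested partner chains, Itga11, Itga5 and Itgav fell, Itga4 and Itga8 rose, and Itga1, Itga6 and Itga7 were not called.

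Itga6, the alpha chain of laminin receptors on neural progenitors, stood at 4.34, 4.37 and 4.67 on the negative arrays and at 3.63, 3.95 and 4.20 on the positive arrays. The groups did not overlap, yet the difference of -0.54 ± 0.18 did not pass (adjusted p = 0.0626). In both groups replicate 3 was highest, and with the replicate number as a block Itga6 was called (adjusted p = 0.0274). It was called in 7 of the 16 alternative settings. Itga7, another laminin-binding chain, had groups that overlapped, and its difference of -1.40 ± 0.48 did not pass (adjusted p = 0.0662). It was called in 4 of the 16 alternative settings, the block among them (adjusted p = 0.00719). Its arrays, given because replicate 3 was seen to stand apart, were -1.71, -2.19 and -0.24 in the negative and -3.12, -3.05 and -2.18 in the positive group. Itgb4, the partner of Itga6 in epithelia, had a difference of -0.44 ± 0.32 (adjusted p = 0.329).

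Itga1, the alpha chain of a collagen and laminin receptor of vessels and smooth muscle, gave different answers with its probes. The brighter probe stood at -2.27, -2.24 and -1.85 on the negative arrays and at -3.29, -3.09 and -0.96 on the positive arrays, and was not called (-0.33 ± 0.55, adjusted p = 0.677). Positive replicate 3 stood far above the other positive arrays, and without it Itga1 was called at -1.07 (adjusted p = 0.0059). The other probe differed by -2.42 and was called in the fit of all probes (adjusted p = 0.0012).

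Of the genes that encode no integrin chain, Itgb3bp, a protein of the centromere and of transcriptional control, stood at 2.28, 2.42 and 2.21 on the negative arrays and at 2.68, 2.72 and 2.76 on the positive arrays. Its increase of 0.42 ± 0.13 just passed (adjusted p = 0.0445). The call was lost in 12 of the 16 alternative settings, the replicate block among them (adjusted p = 0.0509). Itgb1bp1, an adaptor that binds the tail of the shared beta chain, stood at 1.48, 1.60 and 1.47 on the negative arrays and at 1.71, 1.91 and 1.50 on the positive arrays. It was not called (0.19 ± 0.15, adjusted p = 0.367), whereas its second probe was called lower, at -0.63 (adjusted p = 0.0392 in the fit of all probes).

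Among the members that fell, the 9 whose negative arrays spread over 1 log2 unit or more each had negative replicate 1 as the highest array, which was not so for Itga7 and Col14a1, 2 members that did not fall. Over the 27 members that fell, replicate 1 was the highest negative array for 19, replicate 2 for 3 and replicate 3 for 5. No call of a member that fell, other than those of Col16a1 and Itgav, was lost without negative replicate 1.

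Over 16 alternative settings of scaling, background correction, filter, probe choice, variance model, replicate block and left-out arrays, 26 of the 31 called members were called in every setting in which they were tested. The other 5 were Col16a1, Itga8, Itgav, Itgb3bp and Lamc1, and no called member changed sign. The sizes of dim members depend on the background correction. With normexp, which adds an offset of 50 to every spot and so pulls dim signals together, 19 of the 31 differences were smaller by more than 1.5 times. Col3a1 stood there at -2.11, Itga11 at -1.52, Itgb3 at -1.27, Col6a1 at -0.71, Lamc3 at -0.54, Itga2b at -0.45 and Col14a1 at 0.64, and each of their bounds above exceeded the fold fitted in that setting.

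**Figure D4:**
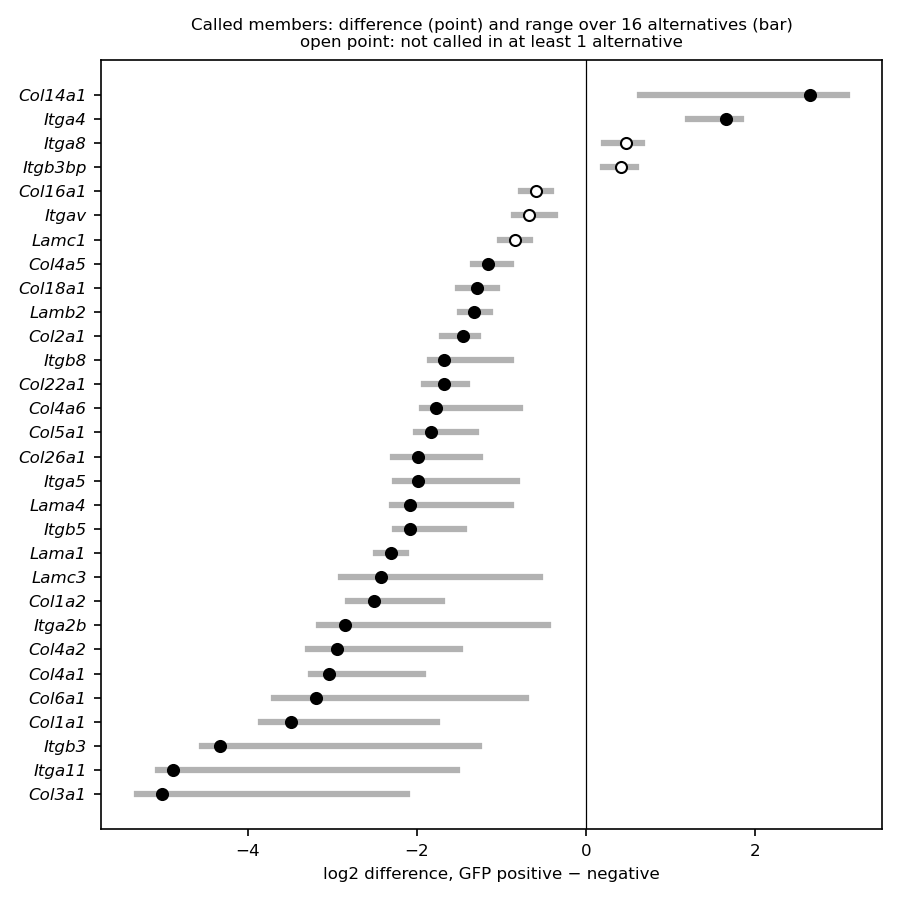
Points show the log2 difference (Tis21-GFP positive minus negative) of 30 called members and bars the range over 16 alternative settings, with open points for the 5 members not called in at least 1 of them. Lama1 spans -2.49 to -2.13, whereas the dim Col3a1 spans -5.32 to -2.11, and no bar crosses 0.

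Genes that work with these families were read from lists of known partners. Of 10 basement membrane partners tested, 5 fell and 0 rose (50% and 0%), against 13.1% and 12.8% of all genes. Sparc, a collagen-binding protein needed to assemble type IV collagen, fell by 2.40 ± 0.20 (adjusted p = 0.00026). Fras1, a protein of the embryonic basement membrane, fell by 1.73 ± 0.18. Nid1, the nidogen that links laminin to type IV collagen, differed by -3.53 ± 0.47, with 1 positive array well above background. The list's median was -0.36, and Nid2 and Agrn also fell.

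Of 27 enzymes and chaperones of collagen synthesis and cross-linking, 10 fell and 1 rose, with a median of -0.27. These were 37.0% and 3.70% of the list, against 13.1% and 12.8% of all genes. Pcolce2, an enhancer of procollagen processing, fell by 2.08 ± 0.24. Adamts3, which trims procollagen, was at least 2.86-fold lower, and P3h2, a prolyl hydroxylase, at least 2.97-fold lower, neither being well above background on any positive array. Ppib, a prolyl isomerase of the secretory pathway in all cells, rose by 0.64 ± 0.15 (adjusted p = 0.0191). Of 15 enzymes that glycosylate dystroglycan, the laminin receptor at the glial end foot, 0 were called.

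Of 32 integrin adaptors and signalling proteins, 11 fell (34.4%) and 4 rose (12.5%), against 13.1% and 12.8% of all genes, with a median of -0.38. The filamin Flnc, which ties integrins to actin, fell by 2.33 ± 0.29, and Apbb1ip, an activator of integrins in blood cells, was at least 1.19-fold lower. Bcar1 rose by 1.36 ± 0.15 (adjusted p = 0.00064), Fyn by 0.73 ± 0.17 and Sharpin, which holds integrins inactive, by 0.48 ± 0.12. Ptk2, the focal adhesion kinase, also rose, and the talins Tln1 and Tln2, which couple integrins to actin, were among the genes that fell. This list fell in 5 to 13 members and rose in 1 to 4 over the alternative settings.

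Of 12 other receptors for collagen and laminin, 5 fell and 3 rose (41.7% and 25%), against 13.1% and 12.8% of all genes. Lair1, a leukocyte collagen receptor, fell by 1.56 ± 0.17, the syndecan Sdc2 by 1.36 ± 0.16 and the collagen uptake receptor Mrc2 by 1.14 ± 0.14. Sdc3, a neural syndecan, rose by 1.24 ± 0.31, Sdc1 by 0.61 ± 0.15 and Adgrg1, a receptor for type III collagen whose loss causes a cortical malformation, by 0.53 ± 0.14 (adjusted p = 0.0272). Adgrg1 rose in the same cells in which its ligand gene Col3a1 was not well above background.

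Of 16 matrix proteases and inhibitors, 10 fell and 3 rose (62.5% and 18.75%), against 13.1% and 12.8% of all genes. The protease genes Adamts9 and Plat fell by 1.94 ± 0.12 and 2.06 ± 0.22 and the inhibitor gene Timp2 by 1.11 ± 0.14, whereas Adamts4, a protease that cuts proteoglycans, rose by 1.12 ± 0.15 and Reck, a membrane inhibitor of metalloproteases, by 0.73 ± 0.20. Of 32 other matrix glycoproteins and proteoglycans, 18 fell and 1 rose (56.25% and 3.125%), against the same shares of all genes. Vtn, which encodes the integrin ligand vitronectin, was at least 22.0-fold lower, Ltbp4 fell by 1.39 ± 0.15 and the proteoglycan gene Bcan by 2.00 ± 0.22. The gene that rose was Mfap4, an integrin ligand of elastic fibres, at 2.92 ± 0.24 (adjusted p = 0.00025).

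Marker lists of cell types did not all move in the same direction. Their counts stand against 13.1% of all genes that fell and 12.8% that rose. Fewer cells of a type and less RNA per cell cannot be told apart in sorted bulk samples, and the part that other cell types play in the differences above was not tested. Marker lists are given by their summed level, the sum of the linear scaled intensity over the genes of a list. Intermediate progenitor genes were higher in the positive cells in 14 of 14 tested, with sums of 89.7 to 126 on the negative and 486 to 577 on the positive arrays. That list includes Btg2, which is Tis21 itself, so its increase follows from the sort and is no separate result. Neurog1 was called although its groups overlapped. Radial glia genes fell in 14 of 17 and rose in 1, with sums of 560 to 624 against 259 to 335. Neuronal genes rose in 7 and fell in 6 of 16, with sums of 119 to 170 against 195 to 238.

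Pericyte genes, which mark the mural cells of vessels, fell in 8 of 10 tested, with sums of 4.06 to 6.38 on the negative and 1.30 to 1.63 on the positive arrays. Of the 12 genes of that list, 8 were well above background on no positive array, the defining genes Pdgfrb, Rgs5, Cspg4, Kcnj8 and Abcc9 among them, and 11 were well above background on at least 1 negative array. Vtn belongs to this list as well as to the matrix glycoproteins. The sum of the pericyte list was 6.38, 4.06 and 5.43 on negative replicates 1 to 3, highest on replicate 1. Tagln held 16.6% to 66.1% of the pericyte sum and Higd1b 5.42% to 18%, and neither was called.

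Meningeal and mesenchymal genes fell in 4 of 5 tested, with sums of 7.21 to 9.24 against 5.64 to 7.53. Of the 18 genes of that list, 8 were well above background on no array of either group (Alx1, Fmod, Foxc1, Foxc2, Foxd1, Ogn, Tbx15 and Twist1), and 14 on no positive array. The sum was mostly that of Crabp2, which held 50.9% to 87.5% of it and was not called (0.08). Each of the 4 genes that fell, Lum, Dcn, Pdgfra and Prrx1, was higher on every negative array than on every positive array. Lum, Dcn and Pdgfra were highest on negative replicate 1, the array on which Col3a1 and Col1a1 were highest too, and Prrx1 on negative replicate 3. Replicate 1 was also the highest negative array for 7 of 8 pericyte, 6 of 6 neuronal, 12 of 13 microglia and 3 of 4 endothelial genes that fell. Among the radial glia genes that fell, it was highest for 4 of 14. On negative replicates 1 to 3 the meningeal sum was 7.21, 8.73 and 9.24, lowest on replicate 1. The endothelial sum was also lowest there, at 28.1, 33.6 and 41.3. Lum and Dcn are in the meningeal list and in that of matrix glycoproteins.

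Endothelial genes fell in 4 of 10 tested, with sums of 28.1 to 41.3 against 24.1 to 30.5 that overlapped between groups. Slc2a1 held 28.8% to 51.4% of the sum and Kdr 17.6% to 38.6%, and neither was called. Mfsd2a, which fell, held 16.4% to 35.2%. The 4 genes that fell (Esam, Mfsd2a, Ramp2 and Cldn5) did not overlap between groups. Of this list, 5 of the 17 genes were well above background on no array. Microglia and macrophage genes fell in 13 of 14, with sums of 16.3 to 22.2 against 4.67 to 8.87. Csf1r, which fell, held 32.9% to 71.3% of the microglia sum. Lyz2 and Spi1 of that list were well above background on no array, and Laptm5 and P2ry12 on no positive array.

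**Figure D5:**
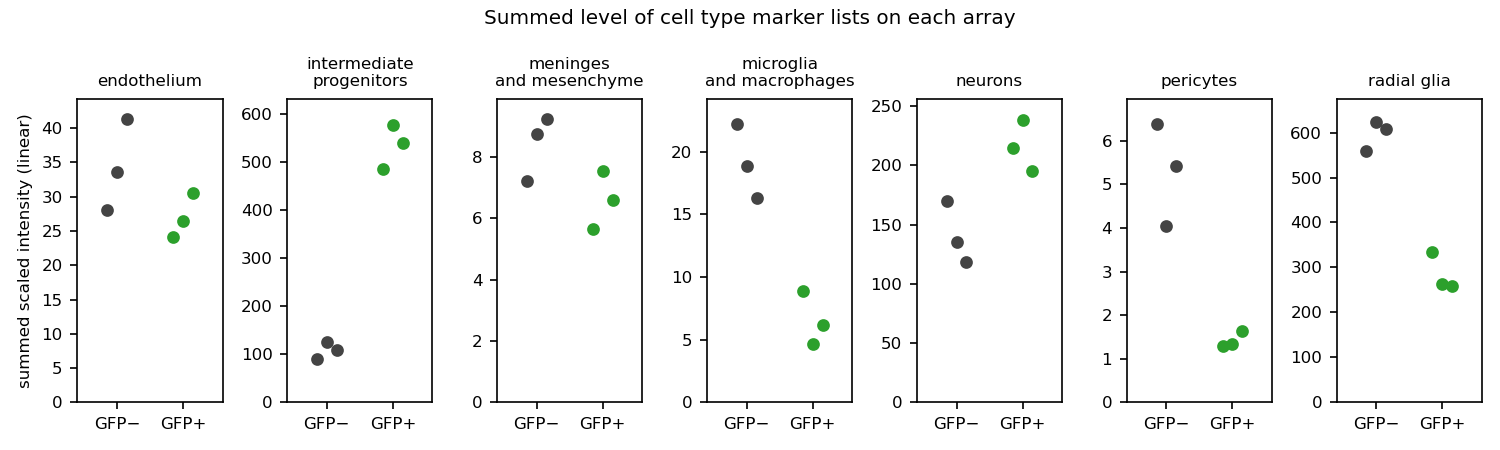
Each panel shows the summed linear scaled intensity of a cell type marker list on the 3 Tis21-GFP negative (grey) and 3 positive (green) arrays, in the order of replicates 1 to 3, with an axis from 0. Pericyte, microglia and radial glia sums lie lower on every positive array, and intermediate progenitor and neuron sums higher. The endothelial and the meningeal sums overlap between groups although 4 genes of each list fell. The endothelial sum rests largely on Slc2a1, Kdr and Mfsd2a, of which Mfsd2a fell, and the meningeal sum on Crabp2.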

How the data were processed

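The scanner files deposited by the authors give spot brightness as intensity. Per the file headers, Agilent Feature Extraction 10.7.1.1 made these values and corrected them for background, and arrays were not scaled to each other. The authors also deposited a table of log2 values. Its steps are not stated, so its scale was read from the values: each array's column correlated at 0.999 or more with the log2 of the scanner's processed intensity, and the columns had a median of 4.67. It served as an alternative only.

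From the processed intensity of 59305 non-control spots, spots marked as outliers (118 to 191 per array) were left out and replicate spots of a probe averaged on the log2 scale. The 75th percentile of each array over 55681 probes was subtracted. No spot was saturated (0 spots). Probes were named by accession through RefSeq (assembly GRCm38.p6), which named 26370 of them. A gene was represented by its tested probe with the highest mean. The test was limma 3.58.1 (R 4.3.3) with the GFP group as its single term and Benjamini-Hochberg adjustment over all 13136 genes. The fit and the adjustment alone were tried on simulated data, which did not cover the scaling, the filter or the choice of probe.

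The labels number replicates 1 to 3 in both groups, and the sample titles pair the arrays of the same number. Deviations from the group means correlated at 0.23, 0.13 and 0.37 between arrays of the same number and at 0.06 or below between others. Same-numbered arrays were taken as pairs, and the replicate number was tried as a block. The SE and p-values above come from the unpaired fit unless another setting is named. All 6 arrays lay on 1 slide and 1 scan, and no files were identical (0 pairs). Within groups arrays correlated at 0.983 to 0.992, across groups at 0.954 to 0.972.

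Members and lists were chosen with earlier results of these data known. Every member could be named. Values on every array were set for up to 10 called members per family by adjusted p and up to 3 members not called by mean signal, and for related lists up to 3 called genes in each direction. Values by array of Col14a1, Col6a2, Itga7 and Itga1, and the names Nid2, Agrn, Ptk2, Tln1 and Tln2, were added after their values were seen. A few genes counted here are not reported by name.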

Additional observations from a re-analysis of the deposited data

How the results depend on the processing

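Counts are members called, and medians are log2 differences. Integrin counts and medians in this section include the 3 tested genes that encode no integrin chain. In the main fit these 17 genes had a median of -0.54, and 7 fell and 3 rose. No called member changed sign in the 16 alternatives, and 449 of 484 values of called members kept their call. With probes well above background on all 6 arrays, 35 members were tested: 0 collagens rose, 3 laminins and 3 integrins fell, and the medians were -0.62 for laminins and -0.20 for integrins. With no filter on dim probes, 1 laminin and 1 integrin rose, and the medians were -0.40 for collagens and -0.84 for laminins. With normexp, 1 integrin rose, and the medians were -0.80 for collagens and -0.52 for laminins. With the percentile over detected probes, 1 integrin rose and the laminin median was -1.26. The laminin median was -1.20 with quantile normalization, -1.20 with the authors' values and -0.90 with median centring. With probes of a gene averaged the collagen median was -1.15. Leaving out each array in turn gave 1 integrin that rose each time, 6 to 11 integrins that fell (11 without Tis21-GFP positive replicate 3), and medians of -1.54 to -1.08 for collagens, -1.15 to -0.98 for laminins and -0.79 to -0.39 for integrins. With the replicate block, 14 collagens, 7 laminins and 9 integrins fell and 2 integrins rose; the paired fit changed no call other than those of Itga6, Itga7, Lama2 and Itgb3bp. Over all genes, 761 to 2348 rose and 1174 to 2273 fell. Of the related and marker lists, counts chosen for these alternatives after the data were seen, pericyte genes fell in 1 to 8, meningeal genes in 2 to 8, neuronal genes in 3 to 6 and integrin adaptors in 5 to 13. What is dim on an array has only a bound, and 3 arrays per group limit small differences.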
